A study of Mus musculus with 33 samples.

Results

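Interferon-stimulated genes are the genes that cells switch on when they sense interferon, and 40 of them were followed through mouse bone marrow progenitors and their response to sepsis. The members are mouse symbols of genes known to be induced by interferon, matched by symbol to the deposited count table, and they are 40 of its 54752 features. The rule matches names and uses no measured value, but the names were chosen with earlier results of these data known. All 40 had counts and all 40 passed the filter on low counts. They fall into 10 groups by role, from RNA-binding proteins and nucleic acid sensors to enzymes, GTPases and membrane proteins.

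Bulk RNA sequencing was carried out on sorted mouse bone marrow cells in 11 groups of 3 biological replicates, 33 libraries in all. The 4 sepsis groups, sepsis Ly6C- GMP, sepsis proNeu1, sepsis proNeu2 and sepsis preNeu, came from mice taken 3 days into a sepsis of middle grade, set off by caecal ligation and puncture, an operation that leaks gut bacteria into the abdomen. Their controls were Ly6C- GMP, proNeu1, proNeu2 and preNeu of wild-type animals sorted with the same gates, and whether these had a sham operation was not given in the labels. Ly6C- GMP are granulocyte-monocyte progenitors without surface Ly6C, proNeu1 and proNeu2 are early neutrophil progenitors, and preNeu are later dividing neutrophil precursors. A further 3 control groups followed the monocyte path: cMoP (common monocyte progenitors), TpMo (premonocytes) and Ly6Chi monocytes. The labels gave no strain, age or sex and no animal for any library.

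Type I interferons bind the IFNAR1 and IFNAR2 receptor chains, and the kinases JAK1 and TYK2 then phosphorylate STAT proteins such as STAT2. These join IRF9 to form the complex ISGF3, which binds the interferon-stimulated response element (ISRE) in the promoters of the target genes, whereas interferon-gamma acts through the GAS element. The products block viral RNA and protein, mark pathogen vacuoles, sense nucleic acids and, as with USP18 and SOCS proteins, restrain the pathway itself. In bone marrow the pathway is known for acting on blood progenitors during infection as well as for its tonic, low-level activity in healthy animals.

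The promoters of members are shown first, since the ISRE is the element through which ISGF3 acts. RefSeq promoters on GRCm38.p6 were matched to 29 of the 40 members, and the 250 bases upstream of each start were searched for the ISRE letters, GAAA followed by any 2 bases and again GAAA, on both strands. At least 1 match was found in 15 of these 29 members (51.7%), against 3.46% of 27025 genes. The GAS letters TTCNNNGAA, which read the same on both strands, were found in 7 of the 29 (24.1%), against 8.13% of genes. The stretches around the ISRE letters of 5 members that were lower in sepsis in the mean over the 4 populations are printed 5′ to 3′ on the gene's strand, with up to 40 bases on each side and the matched letters in capitals.
Igtp, chr11:58199482-58199555, plus strand: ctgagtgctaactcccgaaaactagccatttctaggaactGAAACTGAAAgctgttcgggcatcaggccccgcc
Gbp7, chr3:142530243-142530332, plus strand: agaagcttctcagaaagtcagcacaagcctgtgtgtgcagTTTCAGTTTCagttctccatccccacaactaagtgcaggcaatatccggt
Oas3, chr5:120777685-120777774, minus strand: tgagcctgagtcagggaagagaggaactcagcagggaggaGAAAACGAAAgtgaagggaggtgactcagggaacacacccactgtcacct
Isg15, chr4:156200835-156200936, minus strand: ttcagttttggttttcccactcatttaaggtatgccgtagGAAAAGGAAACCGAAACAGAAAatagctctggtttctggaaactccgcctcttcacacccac
Gbp2, chr3:142620564-142620653, plus strand: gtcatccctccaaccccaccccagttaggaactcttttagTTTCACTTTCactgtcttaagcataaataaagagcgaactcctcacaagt
The match lay 25 to 34 bases upstream of the start in Igtp, 44 to 53 in Gbp7, 66 to 75 in Oas3 and 50 to 59 in Gbp2. In Isg15 there were 3 overlapping matches between 57 and 78 bases upstream. None of these matches overlapped the GAS letters. In Gbp7 and Gbp2 the letters were on the opposite strand. A match is a run of letters and does not show that a factor bound there.

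The libraries held 5517734 to 39977745 counts. The 5 shallow libraries, with at most 6781973 counts, were sepsis proNeu1 replicate 1, proNeu1 replicate 1, sepsis preNeu replicate 3, preNeu replicate 3 and Ly6Chi monocyte replicate 2, and all others held at least 17237611 counts. All 24 libraries of the neutrophil path had more Xist than Ddx3y counts and all 9 of the monocyte path had more Ddx3y than Xist. Sex and path thus cannot be told apart wherever the paths are compared, as in cMoP against Ly6C- GMP. The labelled cell types were checked against summed markers in CPM, the usual counts scaled to a common library size after TMM adjustment. The preNeu markers (Ltf, Camp, Ngp, Lcn2, Cebpe) summed to 27510 to 37590 CPM in sepsis preNeu and 66130 to 106200 CPM in preNeu, against 20.8 to 3725 CPM in the other 9 groups. The monocyte markers summed to 8084 to 14110 CPM in the 3 monocyte-path groups and to 573 to 2656 CPM in the other 8. The proNeu markers (Mpo, Elane, Prtn3, Cebpe, Gfi1) summed to 71570 to 78710 CPM in proNeu1 and 90510 to 96810 CPM in proNeu2. The sum was lower with sepsis, at 30160 to 35000 and 38030 to 40830 CPM. In Ly6C- GMP it fell from 36600 to 45570 CPM to 22870 to 25430 CPM. Over the 4 sepsis populations and their controls, the medians of Mpo (21760 against 45060 CPM), Elane (5568 against 12240 CPM) and Cebpe (118 against 367 CPM) were lower with sepsis. Those of Prtn3 (1833 against 1470 CPM) and Gfi1 (52.7 against 36.3 CPM) were higher. The progenitor markers (Cd34, Kit, Mpo, Elane, Prtn3) did not single out Ly6C- GMP, since they were highest in proNeu2 (90350 to 96550 CPM). In bulk RNA a smaller share of cells that use a gene and less RNA per cell cannot be told apart.

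Across the 7 control groups, 34 of the 40 members had their highest mean CPM in Ly6Chi monocytes. The share of all genes that were highest there was not counted. This ranking runs across both paths, so it carries the difference in sex transcripts too. The exceptions were Ifit2 and Samd9l, highest in preNeu, Gbp7 and Isg20, highest in proNeu2, Gbp3, highest in cMoP, and Cmpk2, highest in TpMo. Per kilobase of gene length, mean levels in Ly6Chi monocytes ran from 0.827 RPKM (CPM divided by gene length in kilobases) for Iigp1 and 1.01 RPKM for Ifi44 to 100.9 RPKM for Oas1a and 181 RPKM for Ifi27l2a. In Ly6C- GMP the highest level was that of the GTPase gene Ifi47, with a mean of 42.3 RPKM in sepsis Ly6C- GMP and 59.3 RPKM in Ly6C- GMP. In preNeu the highest was that of Samd9l, which restrains the growth of blood cells, with a mean of 45.9 RPKM. Mx2 was listed at 0 in every proNeu1, proNeu2 and preNeu library, with and without sepsis. In the annotation of the count table, on GRCm38, 5 members to which the results return lie at chr6:121245906-121270917 (Usp18, ENSMUSG00000030107.10), chr5:114896936-114912234 (Oasl2, ENSMUSG00000029561.17), chr11:58199556-58207591 (Igtp, ENSMUSG00000078853.8), chr16:23520291-23614222 (Rtp4, ENSMUSG00000033355.6) and chr11:72301629-72313733 (Xaf1, ENSMUSG00000040483.15), all on the plus strand, and counts cover their exons.

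**Figure D1:**
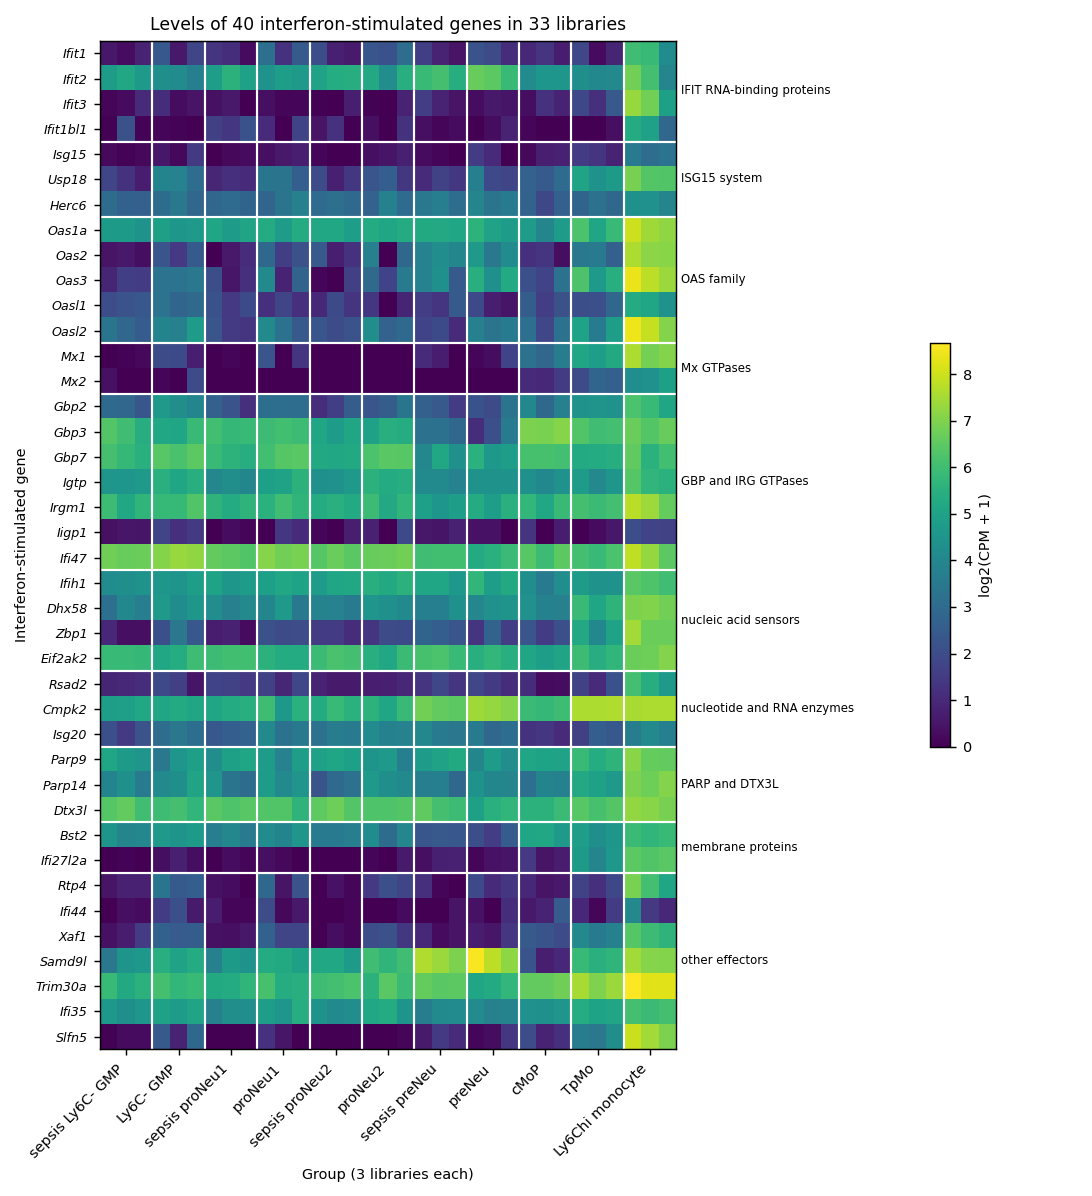
Level of each of the 40 members (rows, grouped by role) in each of the 33 libraries (columns, 3 per group) as log2(CPM + 1). The Ly6Chi monocyte columns are the brightest for most rows, Samd9l is brightest in preNeu, and the Mx rows are dark in proNeu1, proNeu2 and preNeu.

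With sepsis most of the calls among the members were downward. In sepsis Ly6C- GMP 13 members were lower and 0 higher than in Ly6C- GMP by edgeR's quasi-likelihood test (Benjamini-Hochberg adjusted p under 0.05 over 18198 genes), where 7.42% of all genes tested were lower and 10.3% higher. In sepsis proNeu1 9 were lower and 1 higher, against 7.3% and 8.3% of all genes. In sepsis proNeu2 10 were lower and 0 higher, against 7.57% and 9.45%. In sepsis preNeu 3 were lower and 2 higher, against 4.21% and 7.57%. Counted in either direction, 13, 10, 10 and 5 members were called along these populations, against 17.7%, 15.6%, 17.0% and 11.8% of all genes. These 4 comparisons share no control libraries, but the labels do not say whether they share animals.

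Read as single members, 19 were lower in at least 1 population, where 14.9% of all genes tested were, 11 in at least 2 (6.96% of all genes) and 5 in at least 3 (3.52% of all genes). The 5 were Usp18, Oasl2, Igtp, Rtp4 and Xaf1, and 0 members were lower in all 4, where 1.1% of all genes were. A further 3 members were higher in 1 population each, where 18.7% of all genes were higher in at least 1, and 18 members passed the test in none. The median log2 fold change of the 40 members, sepsis over control, was -0.85 for Ly6C- GMP, -0.61 for proNeu1, -0.52 for proNeu2 and -0.19 for preNeu, where the median of all genes tested lay between -0.03 and 0. With members at 0 counts set to the bound that 3 counts per library allow, or left out where neither group passed it, the proNeu1 median was -0.69, the proNeu2 median -0.53 and the preNeu median -0.19. All 3 sepsis libraries lay below all 3 control libraries for 22 members of the Ly6C- GMP comparison (17.7% of all genes tested), 14 of the proNeu1 (15.9%), 14 of the proNeu2 (15.8%) and 5 of the preNeu comparison (11.5%). They lay above for 1, 1, 2 and 6 members in the same order, where 19.1%, 16.9%, 17.9% and 14.2% of all genes did.

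The mean of the 4 sepsis effects draws on 12 sepsis and 12 control libraries. By this mean 21 members were lower, 3 higher and 16 not called, where 17.5% of all genes were lower and 19.6% higher. The fit took the libraries as independent. The labels name no animal, so several populations may have come from the same mice. In that case the p values of the mean effect may be too small. The median member log2 fold change was -0.70, against 0.00 over all genes tested. Of the 24 calls, 20 passed under every alternative fit and without each single library. Without 1 library the count of members called in Ly6C- GMP was 8 without sepsis Ly6C- GMP replicate 3, and that in proNeu2 was 5 without sepsis proNeu2 replicate 2. The preNeu count was 2 without preNeu replicate 1 and 3 without sepsis preNeu replicate 1.

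**Figure D2:**
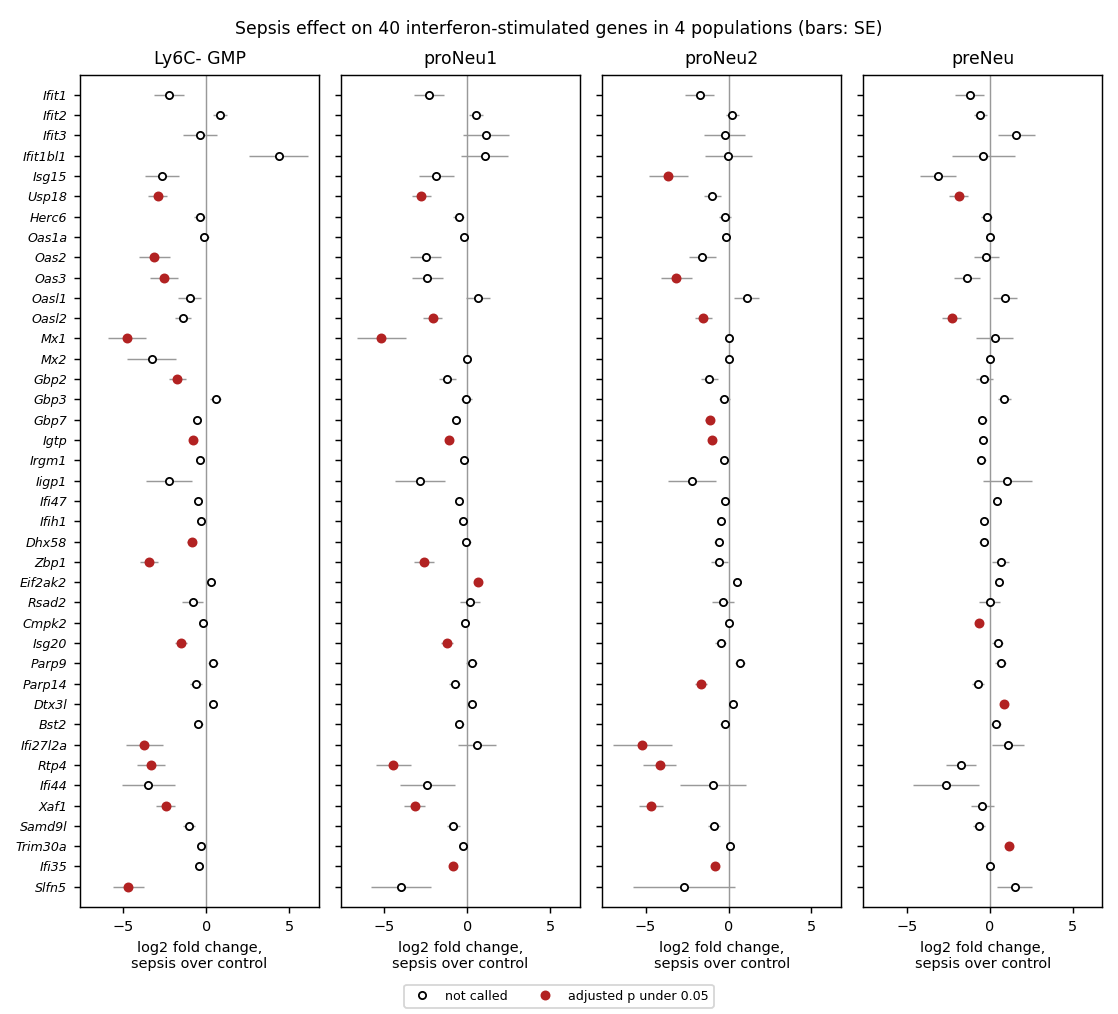
Log2 fold change (sepsis over control, x axis) of each of the 40 members (y axis, by role) in Ly6C- GMP, proNeu1, proNeu2 and preNeu, with SE bars; filled points passed the test at adjusted p under 0.05. Filled points lie to the left of 0 except Eif2ak2 in proNeu1 and Trim30a and Dtx3l in preNeu; fitted values of members at 0 counts (Mx1, Mx2 and Slfn5 in proNeu2, for example) are no measure of size.

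Among the IFIT proteins, which bind viral RNA, none of the 4 members was called in any of the 4 populations. Ifit1, which binds RNA lacking the host's cap methylation, was lower in the mean effect (log2 fold change -1.88 ± 0.44 SE, edgeR adjusted p = 0.0012). Its level spanned 0.192 to 3.19 CPM over the 12 sepsis libraries and 0.498 to 7.95 CPM over the 12 control libraries, so the ranges overlapped. Its partners Ifit2 and Ifit3 had mean effects of 0.25 ± 0.20 and 0.53 ± 0.60, and the mouse paralog Ifit1bl1 one of 1.25 ± 0.82, none of them called. Ifit2 was the most abundant of them in neutrophil-path cells and reached 55.7, 68.7 and 41.2 CPM in sepsis preNeu, against 99.1, 88.8 and 56.3 CPM in preNeu.

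Of the ISG15 system, Usp18 was lower in 3 of the 4 populations. USP18 strips the ubiquitin-like ISG15 from its targets and holds back signalling at IFNAR2. Its level over the 12 sepsis libraries was 0.614 CPM at the lowest, 1.36 at the median and 2.92 at the highest, and over the 12 control libraries 1.67, 6.27 and 14.2 CPM. The highest sepsis libraries thus lay within the lower control range, and the mean effect was -2.14 ± 0.28 (edgeR adjusted p = 4.63e-07). Single libraries of sepsis Ly6C- GMP held 2.55, 1.4 and 0.614 CPM of Usp18, against 14.2, 13.3 and 7.48 CPM in Ly6C- GMP. Usp18 was lower there by -2.94 ± 0.55 (adjusted p = 0.000296) and in proNeu1 by -2.79 ± 0.58 (adjusted p = 0.00121), with no overlap in either. In preNeu it had 1.07, 2.22 and 1.67 CPM with sepsis and 12.3, 2.74 and 2.54 CPM without, again without overlap but with preNeu replicate 1 far above the others. That call (-1.87 ± 0.57, edgeR adjusted p = 0.0286) was lost without preNeu replicate 1 (adjusted p = 0.595), sepsis preNeu replicate 1 (0.141) or sepsis preNeu replicate 3 (0.077).

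Isg15 itself was a rare transcript in these progenitors. In sepsis proNeu2 it had 2 counts in all, against 28 counts in proNeu2, a ratio of 0.0709 with a 95% counting interval of 0.00818 to 0.281 (edgeR adjusted p = 0.0338). That call was lost without sepsis proNeu2 replicate 2 (adjusted p = 0.132), sepsis proNeu2 replicate 3 (0.143), proNeu2 replicate 2 (0.0602) or proNeu2 replicate 3 (0.0979). Isg15 was also lower in the mean effect (-2.81 ± 0.55, adjusted p = 0.00014). Herc6, the mouse ligase that attaches ISG15, was not called in any sepsis comparison, with effects between -0.52 and -0.18.

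In the OAS family, whose synthetases make the short oligoadenylates that activate RNase L, the members did not move as a block. Oasl2, a mouse OAS-like protein, was lower in 3 populations. It had 1.11 CPM at the lowest, 3.36 at the median and 8.99 at the highest over the sepsis libraries, against 4.32, 11.9 and 25.7 CPM over the control libraries (mean effect -1.82 ± 0.27, edgeR adjusted p = 3.61e-06). In sepsis preNeu it had 2.35, 2.82 and 1.11 CPM, against 12.8, 9.15 and 10.9 CPM in preNeu. These did not overlap, and the difference was -2.28 ± 0.57 (adjusted p = 0.00704), although limma voom gave an adjusted p of 0.181. In proNeu1 the Oasl2 call (-2.10, adjusted p = 0.0109) was lost without sepsis proNeu1 replicate 2 (0.0612), sepsis proNeu1 replicate 3 (0.0735) or proNeu1 replicate 1 (0.0756). In proNeu2 it (-1.51, adjusted p = 0.0451) was lost without any of the 3 sepsis libraries (0.0868, 0.14 and 0.108 without replicates 1, 2 and 3) or without proNeu2 replicate 1 (0.369).

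Oas3 had 0 CPM at the lowest, 1.93 at the median and 19.4 at the highest over the sepsis libraries, against 0.762, 9.47 and 42.0 CPM over the control libraries (mean effect -2.37 ± 0.44, edgeR adjusted p = 7.91e-05). The preNeu libraries carried the top of both ranges. In Ly6C- GMP the call for Oas3 (-2.55, adjusted p = 0.0347) was lost without any single library of the 6, with adjusted p between 0.0658 and 0.131. In proNeu2 it (-3.15, adjusted p = 0.0182) was lost without sepsis proNeu2 replicate 1 or 2 (0.0938 for each) or proNeu2 replicate 3 (0.0882). Oas2 was lower in Ly6C- GMP (-3.13, adjusted p = 0.0183) and in the mean effect (-1.86 ± 0.43, adjusted p = 0.00101). The mean-effect call for Oas2 was lost with limma voom (adjusted p = 0.0788), and the Ly6C- GMP call without sepsis Ly6C- GMP replicate 1 (0.0579) or 3 (0.0853) or Ly6C- GMP replicate 3 (0.059). Oas1a, by contrast, had sepsis effects between -0.20 and 0.03, none called, and Oasl1, which in mice represses translation of Irf7, was not called in any sepsis comparison either.

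The Mx GTPases, which restrict the replication of viruses, were near the detection limit on the neutrophil path. Mx1 had 0, 0.072 and 0.136 CPM in sepsis Ly6C- GMP, against 3.00, 2.81 and 0.636 CPM in Ly6C- GMP. The groups did not overlap and the difference was -4.79 ± 1.14 (edgeR adjusted p = 0.00397). In sepsis proNeu1 it had 0, 0.0734 and 0 CPM, against 3.84, 0 and 1.55 CPM in proNeu1, where 1 control library was also at 0. This came to 2 counts against 93 counts, a ratio of 0.0301 with a counting interval of 0.0036 to 0.112 (adjusted p = 0.0177). The proNeu1 call for Mx1 was lost without sepsis proNeu1 replicate 2 (0.0612), sepsis proNeu1 replicate 3 (0.0907) or proNeu1 replicate 1 (0.0645). Mx2 had 0.309, 0 and 0 CPM in sepsis Ly6C- GMP and 0.0791, 0 and 3.02 CPM in Ly6C- GMP and was not called.

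The GBP and IRG families are GTPases that act on the vacuoles of intracellular pathogens and are strong targets of interferon-gamma. Igtp, a regulatory IRG protein, had 13.2 CPM at the lowest, 19.0 at the median and 24.2 at the highest over the 12 sepsis libraries, against 20.2, 36.3 and 46.2 CPM over the 12 control libraries. In proNeu1 it had 15.1, 18.5 and 14.7 CPM with sepsis and 28.5, 31.0 and 46.2 CPM without. Within each of the 4 populations every sepsis library lay below every control library, and the mean effect was -0.84 ± 0.11 (edgeR adjusted p = 3.5e-07). It was called in Ly6C- GMP (-0.81 ± 0.21, adjusted p = 0.00716), proNeu1 (-1.13 ± 0.22, adjusted p = 0.000522) and proNeu2 (-0.99 ± 0.21, adjusted p = 0.0014), and these 3 calls held under all alternatives run.

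Gbp7 had 15.3 CPM at the lowest, 39.4 at the median and 68.7 at the highest over the sepsis libraries, against 23.3, 77.9 and 87.6 CPM over the control libraries (mean effect -0.71 ± 0.13, edgeR adjusted p = 5.48e-05). In proNeu2 it had 36.9, 35.4 and 37.6 CPM with sepsis and 73.0, 86.6 and 83.9 CPM without, a clear gap (-1.15 ± 0.25, adjusted p = 0.00185). Gbp2 was lower in Ly6C- GMP, with 6.87, 6.30 and 3.99 CPM in sepsis Ly6C- GMP against 24.5, 18.5 and 14.6 CPM in Ly6C- GMP (-1.75 ± 0.50, adjusted p = 0.0134). That Gbp2 call was lost without sepsis Ly6C- GMP replicate 3 (0.0774) or Ly6C- GMP replicate 1 (0.0582). Gbp2 was lower in the mean effect too (-1.11 ± 0.25, adjusted p = 0.000858), as was Irgm1, another regulatory IRG protein, by a small margin (-0.34 ± 0.13, adjusted p = 0.033). The Irgm1 call was lost, with adjusted p between 0.0503 and 0.0737, without sepsis Ly6C- GMP replicate 2, Ly6C- GMP replicate 3, sepsis proNeu1 replicate 2, proNeu1 replicate 2, sepsis proNeu2 replicate 1, proNeu2 replicate 1, sepsis preNeu replicate 2, preNeu replicate 1 or preNeu replicate 3. Gbp3, Iigp1, an effector GTPase, and Ifi47 were not called in any sepsis comparison.

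Nucleic acid sensors moved in both directions. Zbp1, which binds Z-form nucleic acid and can trigger necroptosis, had 1.00, 0.288 and 0.273 CPM in sepsis Ly6C- GMP, against 3.28, 9.88 and 4.06 CPM in Ly6C- GMP. In proNeu1 it had 0.596, 0.734 and 0.192 CPM with sepsis and 3.43, 2.90 and 3.15 CPM without. Neither pair overlapped, and the differences were -3.47 ± 0.56 (edgeR adjusted p = 4.55e-05) and -2.63 ± 0.60 (adjusted p = 0.00273). In proNeu2 it had 1.87, 1.90 and 1.14 CPM with sepsis and 1.44, 2.96 and 2.83 CPM without (-0.56 ± 0.52, not called), which overlap. In preNeu it had 5.91, 5.04 and 3.90 CPM with sepsis and 1.54, 5.70 and 1.96 CPM without (0.66 ± 0.51, not called), which overlap too. Over all sepsis libraries Zbp1 spanned 0.192 to 5.91 CPM with a median of 1.07, and over control libraries 1.44 to 9.88 CPM with a median of 3.05 (mean effect -1.50 ± 0.27, adjusted p = 5.84e-05).

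Eif2ak2, the RNA-dependent kinase PKR that shuts down translation, was higher in sepsis. In sepsis proNeu1 it had 60.4, 64.8 and 65.2 CPM, against 46.2, 39.4 and 38.9 CPM in proNeu1. The groups did not overlap and the difference was 0.62 ± 0.19 (edgeR adjusted p = 0.0246). That call was lost without sepsis proNeu1 replicate 2 (0.0809) or 3 (0.0774) or proNeu1 replicate 2 (0.0891) or 3 (0.093), while the mean effect (0.48 ± 0.09, adjusted p = 0.000147) held without each library. Dhx58, which encodes the RNA sensor LGP2, was lower in Ly6C- GMP (-0.88 ± 0.28, adjusted p = 0.0265) and in the mean effect (-0.48 ± 0.14, adjusted p = 0.00753). The Ly6C- GMP call for Dhx58 was lost without sepsis Ly6C- GMP replicate 1 (0.157) or 3 (0.0731) or Ly6C- GMP replicate 1 (0.0964) or 3 (0.0772). Ifih1, which encodes MDA5, was lower in the mean effect only among the sepsis tests (-0.35 ± 0.11, adjusted p = 0.0125).

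Of the nucleotide and RNA enzymes, the exonuclease gene Isg20 had 3.28, 1.80 and 3.65 CPM in sepsis Ly6C- GMP, against 7.51, 9.92 and 7.72 CPM in Ly6C- GMP. It had 4.17, 4.99 and 5.56 CPM in sepsis proNeu1, against 16.2, 8.49 and 10.2 CPM in proNeu1. Both pairs were free of overlap, and the differences were -1.52 ± 0.34 (edgeR adjusted p = 0.00178) and -1.23 ± 0.34 (adjusted p = 0.0127). The proNeu1 call for Isg20 was lost without sepsis proNeu1 replicate 1 (0.065) or proNeu1 replicate 1 (0.0993). Isg20 was lower in the mean effect as well (-0.69 ± 0.17, adjusted p = 0.00162). Cmpk2, a mitochondrial nucleotide kinase, had 111, 95.04 and 88.0 CPM in sepsis preNeu, against 169, 155 and 136 CPM in preNeu (-0.64 ± 0.21, adjusted p = 0.0462). The groups did not overlap, but that call was lost without sepsis preNeu replicate 1 (0.0561), 2 (0.146) or 3 (0.177) or preNeu replicate 1 (0.196) or 2 (0.103). Rsad2, which encodes viperin, was not called in any sepsis comparison, with effects between -0.83 and 0.17.

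The PARP and DTX3L group split. Parp14, a mono-ADP-ribosyltransferase, was lower in proNeu2, with 3.74, 6.81 and 8.71 CPM in sepsis proNeu2 against 24.5, 19.1 and 16.2 CPM in proNeu2. The groups were well apart (-1.64 ± 0.36, edgeR adjusted p = 0.00187), and the mean effect was -0.93 ± 0.18 (adjusted p = 0.000135). Parp9 and Dtx3l, whose products form a ubiquitin ligase complex, were higher in the mean effect, by 0.50 ± 0.16 (adjusted p = 0.013) and 0.44 ± 0.10 (adjusted p = 0.000912). Dtx3l had 91.5, 68.6 and 60.1 CPM in sepsis preNeu, against 29.1, 44.7 and 50.5 CPM in preNeu, without overlap (0.84 ± 0.20, adjusted p = 0.00619). The preNeu call for Dtx3l was lost without sepsis preNeu replicate 1 (0.051) or preNeu replicate 1 (0.0635).

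Of the membrane proteins, Bst2, the tetherin that holds budding virus at the cell surface, was not called in any sepsis comparison (effects between -0.50 and 0.41). Ifi27l2a was at the limit of detection. It had 2 counts in all in sepsis Ly6C- GMP and 32 counts in Ly6C- GMP, a ratio of 0.0591 with a counting interval of 0.00687 to 0.232 (edgeR adjusted p = 0.0187). In sepsis proNeu2 it had 0 counts, against 13 counts in proNeu2, which makes it at least 1.44-fold lower (adjusted p = 0.0441). Library by library, Ifi27l2a had 0, 0.072 and 0 CPM in sepsis Ly6C- GMP, against 0.237, 0.711 and 0.239 CPM in Ly6C- GMP. In proNeu2 all 3 sepsis libraries were at 0, against 0.096, 0 and 0.555 CPM without sepsis, so those groups overlapped. The Ly6C- GMP call was lost without sepsis Ly6C- GMP replicate 1 (0.0736) or 3 (0.0876) or Ly6C- GMP replicate 2 (0.116). The proNeu2 call was lost without sepsis proNeu2 replicate 1 (0.111), 2 (0.102) or 3 (0.119) or proNeu2 replicate 3 (0.344). Its call as lower in the mean effect (adjusted p = 0.036) was lost without any single library of 12, with adjusted p between 0.0527 and 0.143. These were sepsis Ly6C- GMP replicates 1 and 3, Ly6C- GMP replicate 2, sepsis proNeu1 replicate 3, proNeu1 replicates 1 and 2, all 3 sepsis proNeu2 replicates, proNeu2 replicate 3, sepsis preNeu replicate 1 and preNeu replicate 2.

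Among the other effectors, Rtp4 and Xaf1 were each lower in Ly6C- GMP, proNeu1 and proNeu2. Rtp4, an antiviral protein that binds RNA, had 0.386, 0.72 and 0.75 CPM in sepsis Ly6C- GMP, against 9.21, 4.48 and 5.01 CPM in Ly6C- GMP. In proNeu1 it had 0.298, 0.22 and 0 CPM with sepsis and 6.58, 0.363 and 3.67 CPM without. In proNeu2 it had 0, 0.355 and 0.0912 CPM with sepsis and 1.73, 3.37 and 2.52 CPM without. The groups did not overlap in any of these, though proNeu1 replicate 2 lay just above the sepsis libraries. The differences were -3.32 ± 0.85 (edgeR adjusted p = 0.00621), -4.46 ± 1.04 (adjusted p = 0.00359) and -4.15 ± 1.01 (adjusted p = 0.00413) in that order of populations. Limma voom gave an adjusted p of 0.0879 for Rtp4 in proNeu1. Over the 12 sepsis libraries Rtp4 spanned 0 to 1.27 CPM with a median of 0.259, and over the 12 control libraries 0.363 to 9.21 CPM with a median of 3.05 (mean effect -3.41 ± 0.48, adjusted p = 1.43e-06).

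Xaf1, whose product opposes the apoptosis inhibitor XIAP, had 0.309, 0.576 and 1.81 CPM in sepsis Ly6C- GMP, against 5.38, 4.62 and 4.89 CPM in Ly6C- GMP. In proNeu1 it had 0.298, 0.293 and 0.479 CPM with sepsis and 5.48, 2.47 and 2.48 CPM without. In proNeu2 it had 0, 0.237 and 0.0912 CPM with sepsis and 3.17, 3.47 and 1.67 CPM without. None of these pairs overlapped, and the differences were -2.45 ± 0.57 (edgeR adjusted p = 0.00261), -3.19 ± 0.65 (adjusted p = 0.000974) and -4.69 ± 0.73 (adjusted p = 3.55e-05). In sepsis preNeu it had 0.202 to 0.977 CPM, against 0.439 to 1.56 CPM in preNeu, which overlap (-0.43 ± 0.69, not called). The mean effect of Xaf1 was -2.69 ± 0.33 (adjusted p = 1.81e-07), the lowest p among the members, over ranges of 0 to 1.81 CPM with sepsis (median 0.304) and 0.439 to 5.48 CPM without (median 2.82).

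Slfn5, of the Schlafen family, had 0.0386, 0.18 and 0.205 CPM in sepsis Ly6C- GMP, against 4.51, 0.782 and 6.40 CPM in Ly6C- GMP, without overlap (-4.70 ± 0.95, edgeR adjusted p = 0.000745). Ifi35, a partner of NMI, was lower in proNeu1 (-0.89 ± 0.23, adjusted p = 0.00719), proNeu2 (-0.79 ± 0.23, adjusted p = 0.0136) and the mean effect (-0.52 ± 0.11, adjusted p = 0.000518). The proNeu1 call for Ifi35 was lost without sepsis proNeu1 replicate 1 (0.0564) or proNeu1 replicate 3 (0.103). The proNeu2 call was lost without sepsis proNeu2 replicate 2 (0.0784) or 3 (0.051) or proNeu2 replicate 1 (0.0599) or 2 (0.113). Samd9l was lower in the mean effect alone (-0.84 ± 0.18, adjusted p = 0.000573), as was Ifi44 (-2.38 ± 0.92, adjusted p = 0.0421), at most 3.34 CPM in any neutrophil-path library. The Ifi44 call was lost without any single library of 14, with adjusted p between 0.0514 and 1. These were sepsis Ly6C- GMP replicates 1 and 3, Ly6C- GMP replicates 1 and 2, sepsis proNeu1 replicates 2 and 3, proNeu1 replicate 1, sepsis proNeu2 replicates 1 and 2, proNeu2 replicate 3, sepsis preNeu replicates 1 and 2, and preNeu replicates 1 and 3. Trim30a, which in mice restrains NF-kB signalling, was higher in preNeu, with 96.7, 87.0 and 88.7 CPM in sepsis preNeu against 33.9, 38.5 and 51.6 CPM in preNeu. These were far apart (1.15 ± 0.22, adjusted p = 0.000587), and the call held under all alternatives run.

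**Figure D3:**
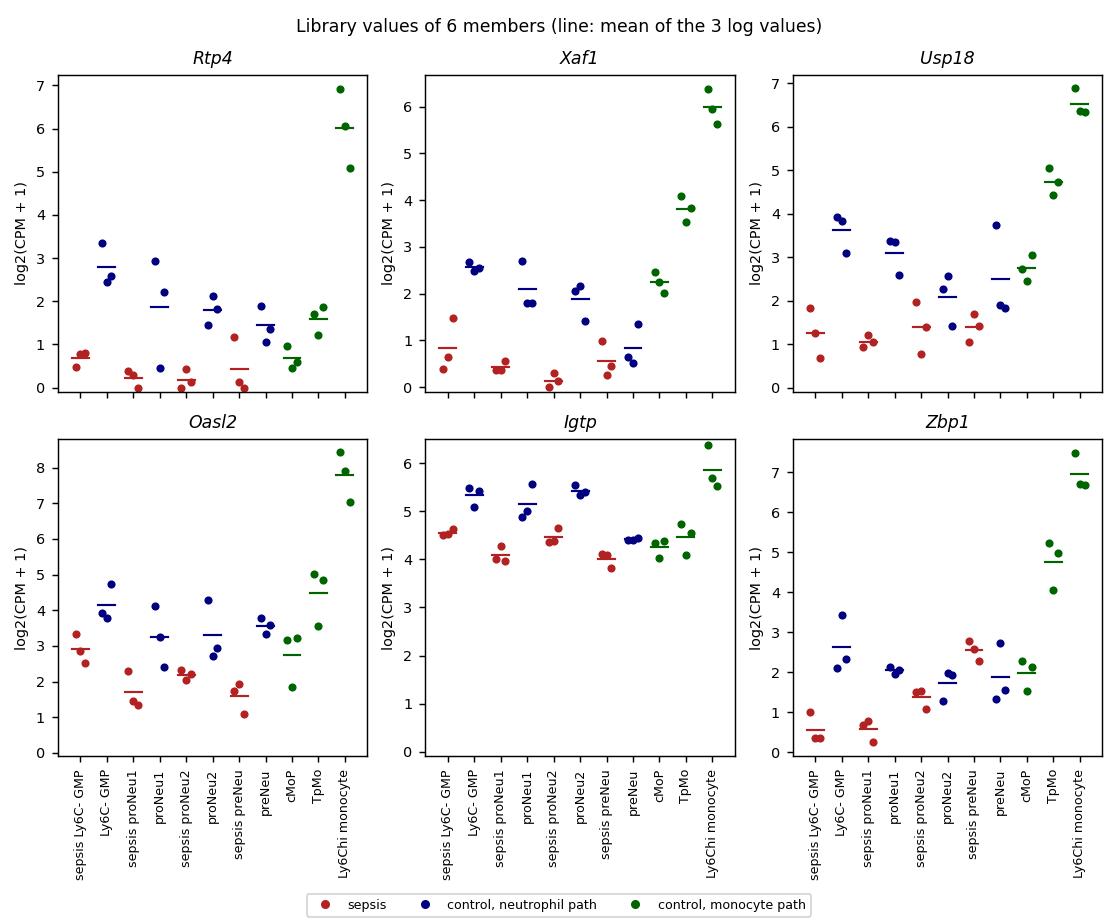
Level of Rtp4, Xaf1, Usp18, Oasl2, Igtp and Zbp1 in each library as log2(CPM + 1), with a line at the mean of the 3 log values; sepsis in red, control neutrophil path in navy, control monocyte path in green. The red points of Igtp lie below the navy points in all 4 populations, those of Zbp1 in Ly6C- GMP and proNeu1, and all 6 genes reach their highest level in Ly6Chi monocytes.

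Whether sepsis acted differently on the 4 populations was tested directly, and 6 members passed, where 6.34% of all genes did. They were Zbp1 (edgeR adjusted p = 0.00181), Trim30a (0.00564), Isg20 (0.0257), Slfn5 (0.0306), Xaf1 (0.0406) and Ifi27l2a (0.0499). The Zbp1 and Trim30a tests passed under all alternatives run. Along Ly6C- GMP, proNeu1, proNeu2 and preNeu the sepsis effects were -3.47, -2.63, -0.56 and 0.66 for Zbp1 and -0.33, -0.27, 0.08 and 1.15 for Trim30a. For Isg20 they were -1.52, -1.23, -0.48 and 0.48. In sepsis proNeu2 Isg20 had 8.71, 11.3 and 11.2 CPM, against 17.2, 12.96 and 13.3 CPM in proNeu2, and in sepsis preNeu 15.1, 10.5 and 9.84 CPM, against 10.9, 6.58 and 7.82 CPM in preNeu. The Isg20 test was lost without sepsis Ly6C- GMP replicate 2 (0.0513), Ly6C- GMP replicate 2 (0.0536), sepsis preNeu replicate 1 (0.0841) or preNeu replicate 2 (0.089). Slfn5, Xaf1 and Ifi27l2a were lost without 8, 11 and 15 single libraries, with adjusted p of up to 0.165, 0.254 and 0.111. With 1 library left out the count of members was 2 without preNeu replicate 2 and 3 without Ly6C- GMP replicate 2. Trim30a in proNeu1 had 37.3, 39.0 and 50.3 CPM with sepsis and 69.7, 40.4 and 43.7 CPM without, which overlap.

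Genes of the signalling pathway itself were counted from lists, to be read against the 17.5% of all genes that were lower and the 19.6% that were higher in the mean sepsis effect. Of 9 ligand genes 1, Ifnk, passed the filter on low counts, and it was not called in sepsis. Ifnb1 was at 0 in every library but sepsis Ly6C- GMP replicate 2, with 0.252 CPM. Of 9 receptors and kinases, 2 were higher and 1 lower in the mean sepsis effect. Ifnar2, a chain of the type I receptor, was higher (0.46 ± 0.10, edgeR adjusted p = 0.000561), as was the kinase gene Tyk2 (0.59 ± 0.08, adjusted p = 2.05e-06), and Jak2, a kinase of the interferon-gamma receptor, was lower (-0.71 ± 0.11, adjusted p = 3.43e-06).

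Of 8 transcription factors, 5 were lower and 1 higher in the mean effect. Irf9, the DNA-binding subunit of ISGF3, was lower in all 4 populations, by -1.88 ± 0.25, -1.37 ± 0.25, -1.47 ± 0.25 and -1.08 ± 0.25 along the path. It had 9.94 CPM at the lowest, 14.5 at the median and 28.2 at the highest over the 12 sepsis libraries, against 21.6, 39.98 and 59.5 CPM over the 12 control libraries (mean effect -1.45 ± 0.13, edgeR adjusted p = 3.72e-10). Within each population every sepsis library lay below every control library. Irf7, which amplifies type I interferon production, had 2.47, 1.44 and 2.73 CPM in sepsis Ly6C- GMP, against 23.5, 14.9 and 23.8 CPM in Ly6C- GMP, without overlap. The difference was -3.22 ± 0.68 (adjusted p = 0.00105) and the mean effect -1.97 ± 0.35 (adjusted p = 4.77e-05). The Irf9 call in preNeu was lost without the shallow libraries (adjusted p = 0.0726). Stat2, a subunit of ISGF3, was lower in the mean effect, by -0.54 ± 0.13 (adjusted p = 0.00114). Irf5 was lower in Ly6C- GMP (-1.56 ± 0.39) but higher in preNeu (4.18 ± 0.48), with an adjusted p of 1.05e-06 for the difference between populations.

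Of 6 inhibitors, including Usp18, 3 were higher and 2 lower in the mean effect. Socs3, an inhibitor of cytokine receptor kinases best known for acting on IL-6 and G-CSF signals, had 10.8 CPM at the lowest, 17.8 at the median and 48.0 at the highest over the sepsis libraries, against 0, 1.31 and 4.30 CPM over the control libraries. The 2 ranges did not meet, and the mean effect was 3.93 ± 0.55 (edgeR adjusted p = 1.53e-06). Of 12 sensors and adaptors 5 were higher and 0 lower, among them Myd88, the adaptor of most Toll-like receptors, with 166 to 282 CPM in sepsis libraries and 43.5 to 143 CPM in control libraries (1.39 ± 0.06, adjusted p = 1.07e-15). Of 12 interferon-gamma targets and antigen presentation genes 5 were lower and 0 higher: Psmb9, Psmb10, Tap2, Tapbp and B2m, the light chain of MHC class I (-0.47 ± 0.06, adjusted p = 4.73e-07).

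**Figure D4:**
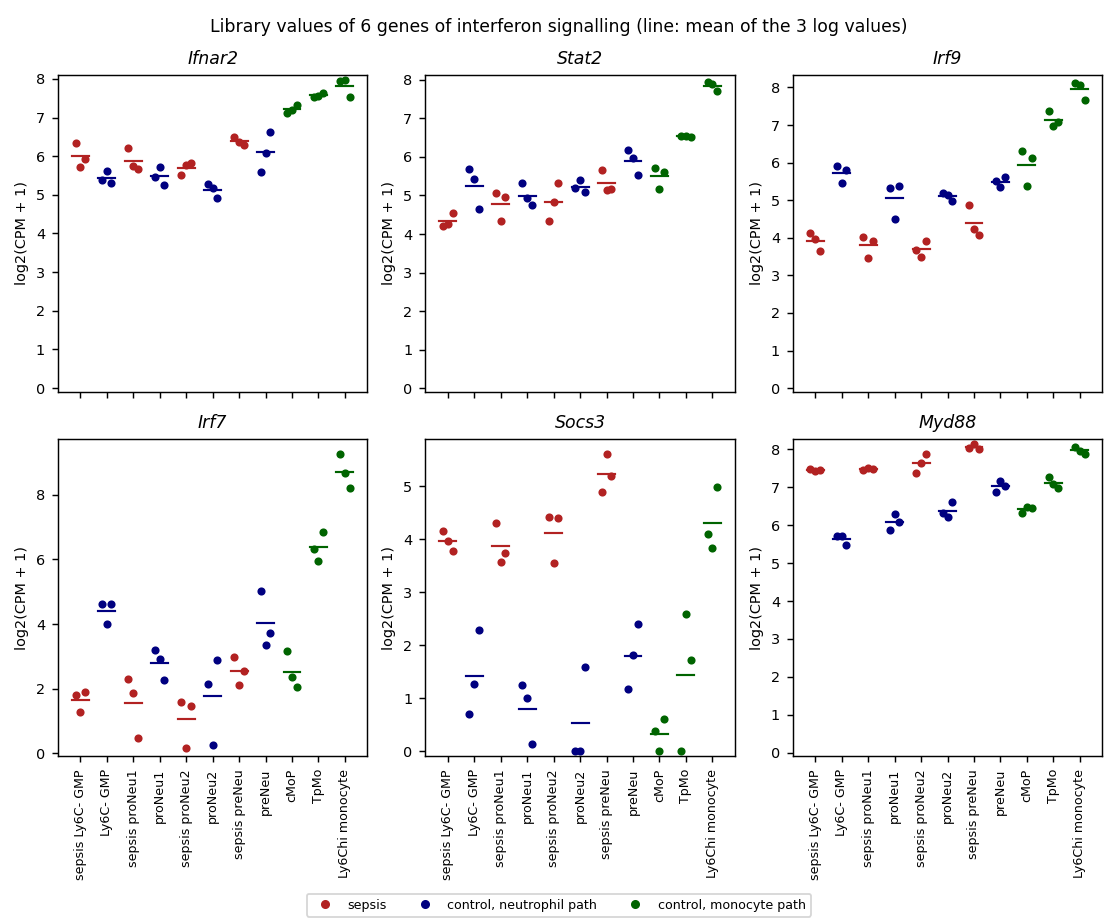
Level of Ifnar2, Stat2, Irf9, Irf7, Socs3 and Myd88 in each library as log2(CPM + 1), with a line at the mean of the 3 log values; sepsis in red, control neutrophil path in navy, control monocyte path in green. The red points of Irf9 lie below and those of Socs3 above the navy points in each of the 4 populations.

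Several members have near copies, and how reads shared between copies were counted was not given in the sources used here, so their values are uncertain to that extent. Of 25 near copies 21 were tested, and in the mean sepsis effect 7 were lower and 3 higher. Over all genes 17.5% were lower and 19.6% higher. Ifi27, of the family of Ifi27l2a, was lower in all 4 populations, with 3.64 to 9.22 CPM over the sepsis libraries and 23.9 to 52.1 CPM over the control libraries (mean effect -2.48 ± 0.15, edgeR adjusted p = 4.6e-13). Slfn8 was lower in the mean effect as well (-1.74 ± 0.22, adjusted p = 2.05e-07).

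Markers of other cell types moved with sepsis. The 7 B and plasma cell markers, all lower in the mean effect, summed to 39.5 to 83.8 CPM in sepsis Ly6C- GMP against 803 to 998 CPM in Ly6C- GMP. They summed to 105 to 316 CPM in sepsis proNeu1 against 3458 to 6364 CPM in proNeu1, to 36.1 to 77.5 CPM in sepsis proNeu2 against 415 to 539 CPM in proNeu2, and to 36.6 to 74.5 CPM in sepsis preNeu against 351 to 1045 CPM in preNeu. The 8 dendritic cell and MHC class II markers, of which 7 were lower in Ly6C- GMP, summed to 29.8 to 41.7 CPM in sepsis Ly6C- GMP against 2358 to 3355 CPM in Ly6C- GMP. The 7 monocyte markers, of which 5 were higher in preNeu, summed to 1938 to 2656 CPM in sepsis preNeu against 707 to 1588 CPM in preNeu. In sepsis Ly6C- GMP the monocyte markers, 1 of them higher and 2 lower, summed to 972 to 1499 CPM against 573 to 736 CPM in Ly6C- GMP. The 8 macrophage markers, of which 3 were lower in the mean effect, summed to 33.5 to 48.5 CPM in sepsis Ly6C- GMP against 60.1 to 127 CPM in Ly6C- GMP, and to 27.6 to 37.6 CPM in sepsis proNeu1 against 73.8 to 90.6 CPM in proNeu1. They summed to 141 to 169.8 CPM in sepsis proNeu2 against 589 to 719.5 CPM in proNeu2, and to 109 to 132.5 CPM in sepsis preNeu against 238 to 370.4 CPM in preNeu. Of these markers Vcam1 had the highest level, up to 156.9 CPM with sepsis and 703.9 CPM without. The others reached at most 55.5 CPM with sepsis (Adgre1) and 21.9 CPM without (Axl) in these 4 populations. The 6 eosinophil, basophil and mast cell markers summed to 2412 to 4961 CPM in sepsis Ly6C- GMP against 11500 to 17020 CPM in Ly6C- GMP, with 4 of them lower, and to 22.8 to 32.05 CPM in sepsis proNeu1 against 95.2 to 152.5 CPM in proNeu1. The sum lay higher, at 92.1 to 208 CPM, in sepsis proNeu2 against 67.4 to 72.6 CPM in proNeu2. Over the 4 populations together the medians of these markers went both ways. Those of Prg2 (44.5 CPM with sepsis, 22.7 without) and Epx (19.0 and 7.74 CPM) were higher with sepsis. Those of Prss34 (2.95 and 42.6 CPM), Cpa3 (0.427 and 5.03 CPM), Gata2 (0.315 and 5.50 CPM) and Mcpt8 (12.1 and 14.8 CPM) were lower. The 6 erythroid markers, of which 3 were lower in the mean effect, summed to 13.9 to 24.7 CPM over the sepsis groups and 27.2 to 73.5 CPM over their controls. The mature neutrophil markers summed to 69.7 to 129.8 CPM in sepsis Ly6C- GMP against 33.7 to 40.1 CPM in Ly6C- GMP, and to 797 to 1009 CPM in sepsis proNeu2 against 418 to 641.5 CPM in proNeu2. Their ranges overlapped in proNeu1 (228 to 465 CPM with sepsis, 247 to 518 CPM without) and preNeu (3705 to 4394 and 3641 to 8656 CPM). Over the 4 populations the highest library values of these markers went both ways. S100a8 reached 3286 CPM with sepsis and 8217 CPM without, and Ly6g 10.8 and 109.6 CPM. Mmp8 reached 553 and 52.4 CPM, Mmp9 322.7 and 198.3 CPM, Cxcr2 247.3 and 132.6 CPM, and Retnlg 34.5 and 14.7 CPM. In sepsis preNeu, where 5 of the 7 monocyte markers were higher, Trim30a, Dtx3l and Irf5 were higher too. The sepsis effect of Dtx3l was above 0 in all 4 populations, and Irf5 was lower in sepsis Ly6C- GMP. Any part of monocyte cells in these changes was not tested. The T and NK cell markers summed to 244 to 280 CPM in sepsis Ly6C- GMP against 527 to 768 CPM in Ly6C- GMP. They summed to 329 to 409 against 901 to 984 CPM for proNeu1 and 415 to 494 against 1179 to 1552 CPM for proNeu2. The preNeu ranges overlapped. Nkg7 alone reached 494 CPM with sepsis and 1552 CPM without. The plasmacytoid dendritic cell markers summed to 78.8 to 96.6 CPM in sepsis Ly6C- GMP against 115 to 125.5 CPM in Ly6C- GMP. In other populations they overlapped. Siglech, which defines plasmacytoid dendritic cells, averaged at most 0.19 CPM in any group. Cd3e, which defines T cells, was at 0 in all groups. The part of these cells in the changes of the interferon-stimulated genes was not tested.

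Split by level, of the 22 members that averaged under 10 CPM over the 24 neutrophil-path libraries, 13 were lower, 0 higher and 9 not called in the mean sepsis effect, with a median log2 fold change of -1.82. Of all genes tested at that level 10.1% were lower and 9.45% higher. Of the 18 members at 10 CPM or more, 8 were lower, 3 higher and 7 not called, with a median of -0.22, where 26.1% of all such genes were lower and 31.5% higher. The level was averaged over sepsis and control libraries together. Sorted by promoter, 7 of the 15 members with the ISRE letters were lower and 0 higher in the mean sepsis effect. Of the 14 without them, 7 were lower and 2 higher. Of the 11 with no matched promoter, 7 were lower and 1 higher. Over all genes tested 17.5% were lower and 19.6% higher. These shares were not counted separately for genes with and without the letters. Any link between the letters and the sepsis effect was thus not tested.

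Without sepsis, 1 member passed the test at each of the 2 early steps of the neutrophil path. In proNeu1 against Ly6C- GMP 1 member was lower and 0 higher, where 2.45% of all genes were lower, 3.59% higher and 6.04% called in either direction. In proNeu2 against proNeu1 1 was lower and 0 higher, against 1.48% and 1.57% of all genes. All 3 proNeu1 libraries lay above all 3 Ly6C- GMP libraries for 3 members and below for 2, where 11.3% and 11.6% of all genes did. All 3 proNeu2 libraries lay above all 3 proNeu1 libraries for 2 members and below for 2, where 9.56% and 9.48% of all genes did. In proNeu1 this was Slfn5, with 1.37, 0.435 and 0 CPM in proNeu1 against 4.51, 0.782 and 6.40 CPM in Ly6C- GMP, groups that overlapped (-3.33 ± 0.91, edgeR adjusted p = 0.0253). It was lost without Ly6C- GMP replicate 1 (0.0659) or 3 (0.106) or proNeu1 replicate 2 (0.0961) or 3 (0.138). In proNeu2 it was Mx1, at 0 counts in proNeu2 against 93 counts in proNeu1 (edgeR adjusted p = 0.0263). The proNeu1 libraries held 3.84, 0 and 1.55 CPM, so the groups overlapped at 0. Set to 3 counts per library, proNeu2 was at least 12.02-fold below the proNeu1 mean, which is not a bound on each library. The Mx1 call was lost without proNeu1 replicate 1 (0.0729) or 3 (0.0674) or proNeu2 replicate 1 (0.0689), 2 (0.0956) or 3 (0.0814).

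In preNeu against proNeu2 5 members were higher and 9 lower, where 13.1% of all genes were higher and 14.7% lower. All 3 preNeu libraries lay above all 3 proNeu2 libraries for 7 members and below for 9, where 17.5% and 18.2% of all genes did. The higher members were Mx1, Oas3, Samd9l, Cmpk2 and Ifit2. Mx1 had 18 counts in preNeu against 0 in proNeu2 (edgeR adjusted p = 0.0421). Its preNeu libraries spanned 0.114 to 2.35 CPM with a median of 0.219. With proNeu2 set to 3 counts per library the preNeu mean was at least 5.98-fold higher, a bound on the mean and not on each library. The Mx1 call was lost without proNeu2 replicate 1 (0.092), 2 (0.0998) or 3 (0.0963) or preNeu replicate 3 (0.205). Oas3 had 42.0, 19.2 and 38.3 CPM in preNeu, against 7.005, 2.35 and 11.1 CPM in proNeu2, without overlap (2.28 ± 0.80, adjusted p = 0.0333). It was lost without proNeu2 replicate 1 (0.0861) or 2 (0.149) or preNeu replicate 1 (0.11) or 3 (0.0705).

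The members that fell most at this step were Gbp3 and Bst2. Gbp3 had 1.197, 3.34 and 10.9 CPM in preNeu, against 29.9, 41.8 and 40.1 CPM in proNeu2 (-3.10 ± 0.40, edgeR adjusted p = 7.26e-07). Bst2 had 3.19, 1.97 and 4.69 CPM in preNeu, against 17.5, 7.45 and 14.9 CPM in proNeu2 (-2.08 ± 0.30, adjusted p = 3.42e-06). Neither overlapped. Xaf1, Gbp7, Ifi47, Ifi35, Igtp, Dtx3l and Trim30a were lower as well. The Xaf1 call was lost without proNeu2 replicate 1 (0.0586) or 2 (0.0688) or preNeu replicate 1 (0.0926) or 2 (0.123). Trim30a, whose groups overlapped, was lost without proNeu2 replicate 2 (0.263) or preNeu replicate 1 (0.105) or 2 (0.0737), and Ifit2 without proNeu2 replicate 2 (0.0888) or preNeu replicate 1 (0.0623). Without proNeu2 replicate 2 the count of members called at this step was 9.

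On the monocyte path most calls were downward at the entry step and upward at the later steps. In cMoP against Ly6C- GMP 3 members were higher and 7 lower, where 9.21% of all genes were higher and 7.96% lower, and the count was 6 without cMoP replicate 3. Samd9l had 3.74, 0.665 and 0.93 CPM in cMoP, against 42.4, 30.9 and 39.1 CPM in Ly6C- GMP (-4.33 ± 0.44, edgeR adjusted p = 2.77e-08). Rtp4 had 0.954, 0.38 and 0.517 CPM in cMoP, against 9.21, 4.48 and 5.01 CPM in Ly6C- GMP (-3.30 ± 0.86, adjusted p = 0.0068). Both were far below Ly6C- GMP in every library. Counted over all members, the 3 cMoP libraries lay above the 3 Ly6C- GMP libraries for 5 and below for 17, where 19.5% and 19.2% of all genes did. Gbp3 had 123, 121 and 136 CPM in cMoP, against 35.8, 33.4 and 56.1 CPM in Ly6C- GMP (1.599 ± 0.345, adjusted p = 0.00128). Trim30a had 94.7, 94.5 and 109 CPM in cMoP, against 67.9, 52.6 and 57.0 CPM in Ly6C- GMP (0.75 ± 0.21, adjusted p = 0.0138), a call lost without Ly6C- GMP replicate 2 (0.0683) or 3 (0.0516) or cMoP replicate 3 (0.0612). Both were above Ly6C- GMP in every library.

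In TpMo against cMoP 19 members were higher and 1 lower, where 9.52% of all genes were higher and 8.56% lower, and the median member log2 fold change was 1.35. All 3 TpMo libraries lay above all 3 cMoP libraries for 27 members and below for 2, where 19.5% of all genes did in each direction. Samd9l had 56.5, 44.1 and 50.2 CPM in TpMo, against 3.74, 0.665 and 0.93 CPM in cMoP (4.75 ± 0.45, edgeR adjusted p = 8.12e-09). Ifi27l2a had 25.6, 14.3 and 23.7 CPM in TpMo, against 1.69, 0.38 and 0.568 CPM in cMoP (4.55 ± 0.73, adjusted p = 4.59e-05). Both gaps were wide. Gbp7 was the member that fell, with 38.6, 39.4 and 40.7 CPM in TpMo against 69.0, 69.0 and 66.2 CPM in cMoP (-0.78 ± 0.25, adjusted p = 0.029), and that call was lost without any single library of the 6, with adjusted p between 0.0541 and 0.0795. The number of members called was 12 without cMoP replicate 2 and 12 without TpMo replicate 1.

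In Ly6Chi monocytes against TpMo 35 members were higher and 0 lower, where 7.59% of all genes were higher and 13.3% lower. The median log2 fold change of the members was 1.89, against 0.00 over all genes tested. All 3 Ly6Chi monocyte libraries lay above all 3 TpMo libraries for 37 members and below for 0, where 15.8% and 18.1% of all genes did. Ifit1bl1 had 39.4, 30.1 and 6.30 CPM in Ly6Chi monocytes, against 0, 0 and 0.284 CPM in TpMo (7.91 ± 1.94, edgeR adjusted p = 0.00311). Ifit1 had 63.8, 58.1 and 17.5 CPM in Ly6Chi monocytes, against 2.60, 0.189 and 0.853 CPM in TpMo (5.27 ± 0.99, adjusted p = 0.00017). Ly6Chi monocyte replicate 3 was the lowest of its group for both, but well above TpMo. The 5 members that did not pass were Mx2, Gbp3, Iigp1, Cmpk2 and Ifi44.

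Beside these rises the macrophage markers summed to 302 to 566 CPM in Ly6Chi monocytes against 146 to 170 CPM in TpMo, and the dendritic cell and MHC class II markers to 282 to 1018 CPM against 30.0 to 51.6 CPM. Their part in the result was not tested. Of the pathway genes, Irf7 had 619, 408 and 297 CPM in Ly6Chi monocytes, against 79.8, 61.4 and 113 CPM in TpMo, without overlap.

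**Figure D5:**
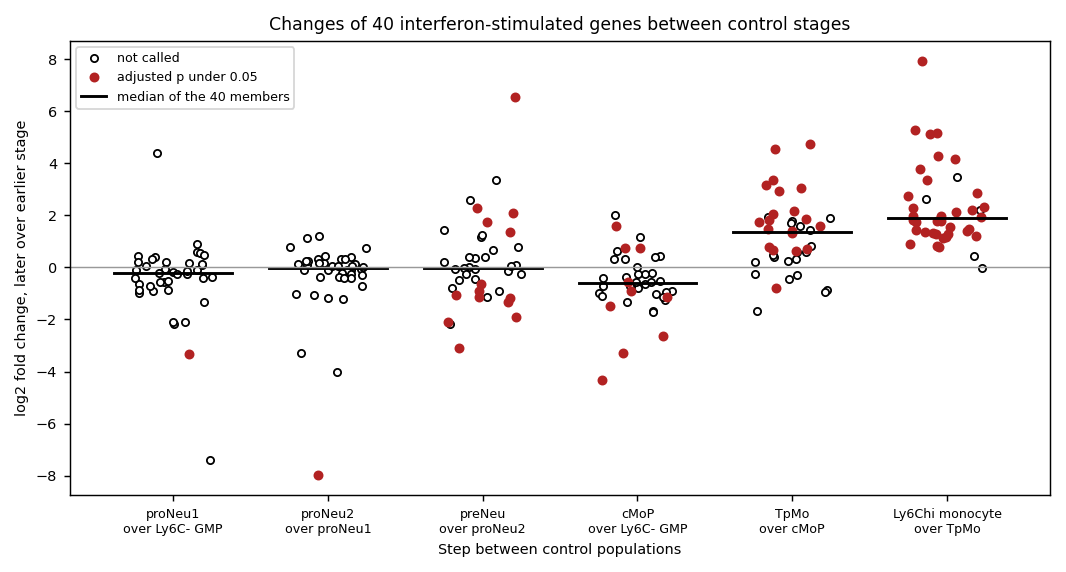
Log2 fold change of each of the 40 members (points) at 6 steps between control groups, later over earlier stage, with a line at the median of the members. The medians are near 0 on the neutrophil path and reach 1.35 for TpMo over cMoP and 1.89 for Ly6Chi monocytes over TpMo.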

How the data were processed

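Total RNA of sorted bone marrow cells was made into SMART-Seq2 libraries and sequenced as paired ends, per the labels' protocols. The deposited values are raw counts per gene for 33 libraries, and the submitters' processing notes name STAR, featureCounts and GRCm38 without versions. The strand setting, the treatment of read pairs and of reads shared between genes were not given in the sources used here. Of the nonzero counts of 1 to 10, 76.2% were even, so pairs may count as 2, and counting intervals, which cover counting error only, may be too narrow. No sample column was left unused (0).

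Counts were scaled by TMM, filtered with filterByExpr to 18198 genes and fitted with edgeR 4.0.16 in R 4.3.3 (robust quasi-likelihood, 11 group means, all 33 libraries, 22 residual degrees of freedom before moderation). Benjamini-Hochberg adjusted p under 0.05 was the threshold, over all genes tested in a comparison. The mean sepsis effect averaged the 4 sepsis minus control contrasts, and a joint F test asked whether they differed. CPM used TMM-scaled library sizes, and RPKM divided CPM by gene length in kilobases. Groups at 0 were bounded at 3 counts per library, and their folds set the mean of the other group against that bound. Ratios with 1 to 3 counts have exact 95% intervals. The fit was tested on simulated data.

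Alternatives were DESeq2 1.42.0, limma 3.58.1 voom, RLE factors, no filter, a stricter filter (10 CPM in 3 libraries), halved counts, leaving out the shallow libraries, fitting only the libraries compared, and leaving out each library. Groups came from the cell type labels, and replicates were numbered in accession order. Library values were given for the called members that rose most and fell most (3 each) per sepsis comparison, the 8 lowest mean-effect p, the 2 largest rises and falls per control step and the 3 lowest interaction p, with further called members added after their values were seen. A gene of the transcription factor list is not reported here. Members, pathway lists and marker lists were chosen with earlier results of these data known.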

Additional observations from a re-analysis of the deposited data

Results flagged for a closer look

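For 6 of the 40 interferon-stimulated genes the effect of sepsis differed between the 4 populations by the joint test of the difference itself. The share over all genes tested was 6.34%. The 6 were Zbp1 (edgeR, Benjamini-Hochberg adjusted p over all genes tested = 0.00181), Trim30a (0.00564), Isg20 (0.0257), Slfn5 (0.0306), Xaf1 (0.0406) and Ifi27l2a (0.0499). Zbp1 was lower in sepsis Ly6C- GMP (-3.47 ± 0.56) and sepsis proNeu1 (-2.63 ± 0.60), with fitted effects of -0.56 in proNeu2 and 0.66 in preNeu. Trim30a was higher in sepsis preNeu (1.15 ± 0.22). The pathway lists held 9 ligands, 9 receptors and kinases, 8 transcription factors, 12 sensors and adaptors, 6 inhibitors and 12 interferon-gamma targets. Of these, 8 genes differed by the same test, to be read against the same 6.34%: Irf5 (adjusted p = 1.05e-06), Psmb10 (0.000272), Jak2 (0.00358), Myd88 (0.0238), Ciita (0.0259), Unc93b1 (0.0287), Tlr3 (0.0326) and Tapbp (0.0372). Irf5 was lower in sepsis Ly6C- GMP (-1.56 ± 0.39) and higher in sepsis preNeu (4.18 ± 0.48). Ciita, the activator of MHC class II genes, had 0.0772, 0 and 0.205 CPM in sepsis Ly6C- GMP, against 25.3, 27.4 and 26.0 CPM in Ly6C- GMP. The dendritic cell and MHC class II markers were lower in the same libraries, and their part in the result was not tested. Myd88 was higher in all 4 populations, by 1.84 (Ly6C- GMP), 1.40 (proNeu1), 1.26 (proNeu2) and 1.04 (preNeu).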

How the results depend on the processing

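No alternative turned the direction of a member called by the main test. The counts of members called that moved by over 1.5 times were those of sepsis in proNeu2 (10, against 6 with no filter and 6 with only the libraries compared), sepsis in preNeu (5, against 3 with limma voom and 3 with only the libraries compared), proNeu1 against Ly6C- GMP (1, against 3 with limma voom, 0 with no filter, 2 with halved counts and 2 with only the libraries compared), proNeu2 against proNeu1 (1, against 0 with no filter and 0 with only the libraries compared) and the test of the difference between populations (6, against 3 with no filter). With the settings in the same order, all genes called for sepsis in proNeu2 numbered 2576 and 3186 (3097 in the main fit). For sepsis in preNeu they numbered 2414 and 1219 (2145 in the main fit). For proNeu1 against Ly6C- GMP they numbered 2295, 901, 1266 and 1015 (1100 in the main fit). For proNeu2 against proNeu1 they numbered 408 and 353 (555), and for the difference between populations 915 (1154). The causes were not tested. DESeq2 called 18 members in sepsis Ly6C- GMP, 14 in sepsis proNeu1, 11 in sepsis proNeu2 and 7 in sepsis preNeu. All genes called by DESeq2 numbered 3903, 3539, 3884 and 2869 in that order, against 3223, 2839, 3097 and 2145 in the main fit. In the mean effect DESeq2 called 27 members and 7141 genes, against 24 members and 6749 genes in the main fit. In sepsis Ly6C- GMP limma voom called 14 members and 5016 genes. DESeq2 was not run for the difference between populations.

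With each library left out in turn, the members called numbered 8 to 13 for sepsis in Ly6C- GMP, 7 to 10 in proNeu1, 5 to 9 in proNeu2, 2 to 7 in preNeu and 21 to 26 in the mean effect. They numbered 0 to 2 for proNeu1 against Ly6C- GMP, 0 to 1 for proNeu2 against proNeu1, 9 to 13 for preNeu against proNeu2, 6 to 9 for cMoP against Ly6C- GMP, 12 to 19 for TpMo against cMoP, 28 to 31 for Ly6Chi monocytes against TpMo and 2 to 9 for the difference between populations. Calls that held under every alternative and without each library were 8 of 13 in Ly6C- GMP, 4 of 10 in proNeu1, 5 of 10 in proNeu2, 1 of 5 in preNeu and 20 of 24 in the mean effect. They were 9 of 14 for preNeu against proNeu2, 6 of 10 for cMoP against Ly6C- GMP, 10 of 20 for TpMo against cMoP and 26 of 35 for Ly6Chi monocytes against TpMo.

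No paired analysis was possible because the labels carry no replicate numbers. With 3 libraries a group, 5 of the 33 libraries shallow and several members at a few counts, some folds within a population are known only as bounds or wide counting intervals.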
